A study of Mus musculus with 4 samples.

Results

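The cells described here are the Mki67-positive CD4 T cells of the alloBMT library, set against the Mki67-negative CD4 cells of the same library. A cell was called positive when it held at least 1 Mki67 UMI (unique molecular identifier, 1 counted RNA molecule) and negative when it held none. This split the 926 alloBMT CD4 cells into 254 positive and 672 negative cells, out of 1210 CD4 cells with RNA and 3587 cells in the whole series. The cells were chosen by their Mki67 counts in the same RNA table, so Mki67 itself is described and not compared.

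The study collected T cells from mouse bone marrow at day 14 after allogeneic bone marrow transplantation, alloBMT. Recipients were C57Bl/6 mice, and C3H.SW donors supplied 5000000 bone marrow cells, 500000 CD4 T cells and 500000 CD8 T cells per transplant. Mice of the PT-Cy group were also given cyclophosphamide at 50 mg/kg on days 3 and 4. T cells of both kinds were flow-sorted from the pooled marrow of 4 mice per group and profiled with the 10X Multiome assay, which reads RNA and open chromatin (ATAC) from the same nucleus. Both sides of the comparison therefore share donor, recipient, sort, day and library, and the pool gives 1 library per group, so no value below has a replicate and no test was run. Intervals are exact 95% counting intervals that leave out the spread between cells and mice.

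Mki67 encodes Ki-67, a protein that coats the surface of condensed chromosomes in mitosis and that cycling cells make from S phase on, while resting cells hold little of it. T cells that meet antigen leave quiescence through D-type cyclins and CDK4 or CDK6, switch on E2F target genes for DNA replication, and then, before mitosis, switch on a late set of genes for the spindle, kinetochore and cytokinesis. The late genes are known to be controlled through DNA elements called the cell cycle homology region (CHR) and the CCAAT box, and the earlier genes through E2F elements.

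The promoters below are shown because they are those of Mki67, of 4 late cell cycle genes that were higher in the positive cells, and of Ccnd3, a D-type cyclin gene that was lower. Each runs from 250 bases before to 50 bases after the gene's start in the RefSeq table for GRCm38.p6, written 5′ to 3′ on the gene's strand, and capitals mark TTTGAA (a CHR form) and CCAAT on either strand. The windows are chr7:135716330-135716629 on the minus strand for Mki67, chr11:99024140-99024439 (minus) for Top2a, chr1:189688037-189688336 (minus) for Cenpf, chr10:69352863-69353162 (minus) for Cdk1, chr2:119046869-119047168 (plus) for Knl1 and chr17:47504801-47505100 (plus) for Ccnd3.
Mki67: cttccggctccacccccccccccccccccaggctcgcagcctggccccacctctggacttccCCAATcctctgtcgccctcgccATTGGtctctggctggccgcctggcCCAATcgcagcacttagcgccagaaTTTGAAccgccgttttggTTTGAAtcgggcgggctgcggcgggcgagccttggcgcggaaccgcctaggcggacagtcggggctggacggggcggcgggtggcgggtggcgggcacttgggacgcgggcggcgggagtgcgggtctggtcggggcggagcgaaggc
Top2a: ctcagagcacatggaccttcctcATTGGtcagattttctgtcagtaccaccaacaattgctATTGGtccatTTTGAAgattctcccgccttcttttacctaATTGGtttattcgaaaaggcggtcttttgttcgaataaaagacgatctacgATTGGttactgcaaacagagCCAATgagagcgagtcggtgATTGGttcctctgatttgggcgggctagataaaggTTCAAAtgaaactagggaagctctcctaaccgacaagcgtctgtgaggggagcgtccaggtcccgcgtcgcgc
Cenpf: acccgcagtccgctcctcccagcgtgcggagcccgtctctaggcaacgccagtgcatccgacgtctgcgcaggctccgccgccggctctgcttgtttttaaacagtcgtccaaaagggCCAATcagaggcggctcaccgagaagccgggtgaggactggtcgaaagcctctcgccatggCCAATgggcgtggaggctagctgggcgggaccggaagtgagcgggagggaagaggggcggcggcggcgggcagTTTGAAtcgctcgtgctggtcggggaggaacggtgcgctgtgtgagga
Cdk1: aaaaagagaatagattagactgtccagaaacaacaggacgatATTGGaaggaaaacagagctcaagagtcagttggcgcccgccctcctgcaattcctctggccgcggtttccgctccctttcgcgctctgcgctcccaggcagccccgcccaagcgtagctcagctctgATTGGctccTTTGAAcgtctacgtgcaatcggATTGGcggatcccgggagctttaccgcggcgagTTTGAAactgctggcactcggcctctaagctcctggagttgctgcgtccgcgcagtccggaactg
Knl1: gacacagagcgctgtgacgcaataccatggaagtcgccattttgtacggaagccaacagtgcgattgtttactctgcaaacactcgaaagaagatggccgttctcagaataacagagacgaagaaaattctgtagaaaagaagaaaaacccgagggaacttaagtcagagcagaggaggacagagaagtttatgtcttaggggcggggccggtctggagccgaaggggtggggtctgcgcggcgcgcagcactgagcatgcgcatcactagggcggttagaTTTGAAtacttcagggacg
Ccnd3: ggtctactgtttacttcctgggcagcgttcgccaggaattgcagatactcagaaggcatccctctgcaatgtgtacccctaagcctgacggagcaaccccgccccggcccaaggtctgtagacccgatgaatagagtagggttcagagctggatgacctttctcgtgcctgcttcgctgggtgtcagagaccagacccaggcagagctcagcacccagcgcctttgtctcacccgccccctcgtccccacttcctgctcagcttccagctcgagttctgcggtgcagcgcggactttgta

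The Mki67 window held 2 TTTGAA matches and 3 CCAAT matches, that of Top2a 2 and 6, that of Cdk1 2 and 3, and that of Cenpf 1 and 2. Knl1 had 1 TTTGAA match and 0 CCAAT matches, and Ccnd3 had 0 of either. These letters are a description of the window, not mapped binding sites.

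Positive cells held more UMIs, and a cell with more UMIs has more chances to show a Mki67 UMI; whether this reflects reads or RNA content was not tested. Their median was 3260.5 UMIs and 1763 genes per cell, against 2667 UMIs and 1539.5 genes in negative cells, and their summed RNA was 1009073 against 2018894 UMIs. The medians of ATAC counts were 7633 and 6503.5 per cell. The mitochondrial share of UMIs was 4.07% against 3.52%, while the intronic share (45.8% and 45.4%), the share of fragments in peaks (65.7% and 67.0%) and the TSS enrichment ratio (5.37 and 5.47) were close. RNA from other blood cells was low on both sides. B and plasma cell markers summed to 14.9 CPM (UMIs scaled to 1000000 per side) in positive and 12.9 CPM in negative cells, with 8 of 14 at 0, among them Pax5. Neutrophil and monocyte markers summed to 42.6 and 46.1 CPM (3 of 18 at 0: Ctsg, Csf3r and Retnlg), erythroid markers to 220 and 236 CPM (4 of 11 at 0, among them Klf1, Slc4a1 and Epor), and stem and progenitor markers to 8.92 and 21.3 CPM (6 of 12 at 0, among them Cd34 and Flt3). Every cell on both sides held a Cd4 UMI and 0 held a Cd8a UMI. How the CD4 set was made was not given in the sources used here, so these counts are no independent check of it. Cd8b1 was found in 22.8% of positive and 20.4% of negative cells. Haemoglobin RNA was taken as a gauge of RNA from other cells. Whether that RNA was free or came from doublets was not tested. Hbb-bs, which T cells do not make, was found in 35.4% of positive and 27.8% of negative cells, and in 20.5% and 21.2% after each cell was thinned to 1971 UMIs. Thinning left out 15 positive and 77 negative cells that were shallower than that. No cell type that should lack Mki67 was at hand, so the part of free RNA in the Mki67 calls was not tested.

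Most positive cells sat just inside the rule. Of the 254, 166 held exactly 1 Mki67 UMI (17.9% of the CD4 cells), 43 held 2 and 45 held 3 or more, up to 24 in a single cell. The positive share was 27.4% (24.6 to 30.4). The 45 cells with 3 or more UMIs were 17.7% of the positive cells and carried 55.6% of the 568 Mki67 UMIs, whereas the cells with 1 UMI were 65.4% of the cells and carried 29.2%. Depth differed between these classes, with medians of 2837.5 UMIs per cell at 1 Mki67 UMI, 3834 at 2 and 5244 at 3 or more. In PT-Cy, 221 of 284 CD4 cells were positive (77.8%), 110 of them with 3 or more UMIs. After thinning, 176 alloBMT cells still held a Mki67 UMI and 658 did not.

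**Figure D1:**
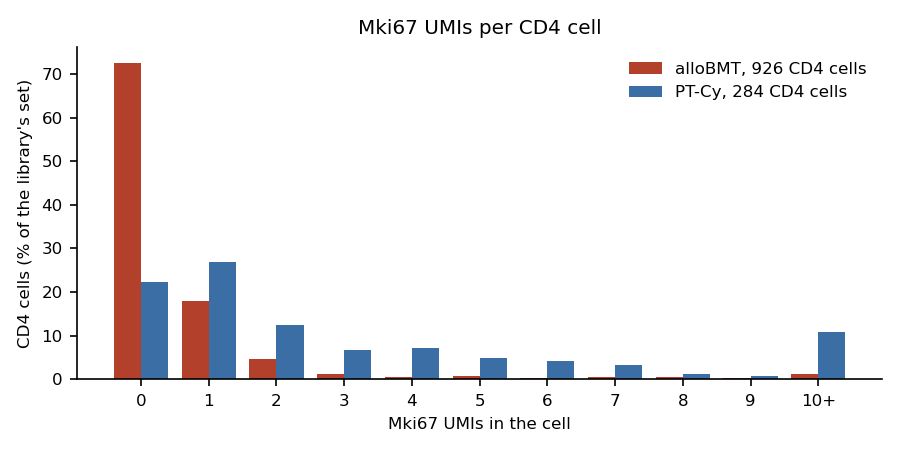
Share of CD4 cells in each library (vertical axis, percent) by the number of Mki67 UMIs in the cell (horizontal axis), with alloBMT and PT-Cy as separate bars. In alloBMT the bars fall from 72.6% at 0 UMIs to 17.9% at 1, while PT-Cy cells spread to higher counts.

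The clusters deposited by the authors for CD4 cells, numbered 0 to 4, all held positive cells. Clusters 0 and 1 held most of them, 81 and 91, but there they were 21.7% and 28.4% of the cluster. Cluster 2 was small in alloBMT, with 29 positive and 13 negative cells (69.0%), and it held 20 of the 45 cells with 3 or more Mki67 UMIs. Cluster 3 had 38 positive and 118 negative cells (24.4%), and cluster 4 had 15 and 19 (44.1%). How the clusters were made was not given in the sources used here, nor was whether Mki67 was among the genes used.

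Few genes differed 2-fold between positive and negative cells, and most of those that did were cell division genes. Among the 5114 genes that had 100 UMIs or more in sum, 33 were at least 2-fold higher in positive cells (0.645%) and 3 were at least 2-fold lower (0.0587%), and the median log2 ratio was -0.01. Of those 33 genes, 26 belonged to the cell division lists, which hold 106 of the 5114 genes. A gene that reached 100 UMIs only through the positive side, such as Cenpp (114 against 15 UMIs), had to be higher. The lists were chosen with earlier results of these data known, so this overlap is a description only. The other 7 of the 33 were Zgrf1, Cep128, Cip2a, Stmn1, Cks2, Cep57l1 and Tuba1b, named after their values were seen. Several of these also act in division: Stmn1 encodes a microtubule regulator, Cks2 a partner of cyclin-dependent kinases, Tuba1b an alpha-tubulin and Cep128 a centriole protein.

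The late, mitotic genes differed most. In the list of mitotic kinases, spindle and cytokinesis genes, 48 of 51 measured members (at least 20 UMIs, of 61 in the list) were at least 1.5-fold higher in positive cells and 0 were lower. The same bounds held 8.09% of 9280 genes on the higher and 6.3% on the lower side. These shares also apply to the RNA list counts below that set all positive against all negative alloBMT cells. The list's median log2 ratio was 1.78, against 0.00 over all 9280 genes, and its summed level was 2735 CPM in positive against 786 CPM in negative cells. A member measured only through the side where it is high had to differ, so these counts describe the members that were measured.

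Cit, the citron kinase of the cleavage furrow, had 123 UMIs in positive and 33 in negative cells, 122 against 16.3 CPM, a log2 ratio of 2.90 (2.33 to 3.50). Positive cells also held more RNA of the spindle motor genes Kif4 (82.3 against 5.94 CPM, log2 ratio 3.79), Kif14 (41.6 against 4.95 CPM, 3.07), Kif15 (127 against 21.3 CPM, 2.57) and Kif11 (169 against 40.6 CPM, 2.06). Anln, an actin-binding scaffold of the cytokinetic ring, was at 48.6 against 4.95 CPM (log2 ratio 3.29), and Ect2, the exchange factor that activates RhoA at the furrow, was at 101 against 17.8 CPM (2.50). Nusap1, a spindle-bundling protein gene, had a log2 ratio of 2.43, and Depdc1a one of 3.14. These genes were found in a minority of the positive cells: Cit UMIs were in 21.3% of positive and 4.32% of negative cells, and in 15.1% and 2.52% after thinning to 1971 UMIs.

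The mitotic cyclins and their kinase had few UMIs. Cdk1, the kinase that drives entry into mitosis, had 33 UMIs in positive and 20 in negative cells, 32.7 against 9.91 CPM, a log2 ratio of 1.72 (0.88 to 2.60). Ccna2, cyclin A2, was at 32.7 against 6.44 CPM (2.34, 1.38 to 3.39). Ccnb1, cyclin B1, had only 14 and 16 UMIs, and its log2 ratio of 0.81 had an interval from -0.34 to 1.94, so a difference in Ccnb1 was not detectable at this depth. Top2a, the topoisomerase that untangles sister chromatids, was the most abundant of this group, at 453 CPM (457 UMIs) in positive and 168 CPM (339 UMIs) in negative cells, a log2 ratio of 1.43 (1.23 to 1.64). Top2a UMIs were in 50.4% of positive and 34.5% of negative cells, and in 36.4% and 24.5% after thinning, so Top2a RNA was not restricted to cells called positive.

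Centromere and kinetochore genes followed the same pattern. Of 24 measured members (27 in the list), 20 had at least 1.5-fold more RNA in positive cells and 0 had less, with a median log2 ratio of 1.99 and summed levels of 1161 and 422 CPM. Cenpp, a subunit of the constitutive centromere network, had the highest lower bound among all genes named here with at least 100 UMIs: 114 UMIs against 15, 113 against 7.43 CPM, a log2 ratio of 3.93 (3.14 to 4.81). Cenpf, which binds the outer kinetochore in G2 and mitosis, had 92 against 22 UMIs (91.2 and 10.9 CPM, 3.06, 2.38 to 3.81). Knl1, the scaffold that recruits spindle checkpoint proteins, had 119 against 30 UMIs (118 and 14.9 CPM, 2.99, 2.40 to 3.62), and Cenpe, a kinetochore motor gene, had 147 against 59 (146 and 29.2 CPM, 2.32, 1.87 to 2.78). Cdca2 RNA was also higher, with a log2 ratio of 2.53.

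Replication genes differed less. Of 51 measured genes for licensing and the replication fork, 23 passed 1.5-fold in favour of positive cells and 0 in favour of negative cells, with a median log2 ratio of 0.43 and summed levels of 3141 and 2314 CPM. Clspn, a fork checkpoint adaptor, was at 82.3 against 20.8 CPM (log2 ratio 1.98, 1.43 to 2.55), Uhrf1, which maintains DNA methylation behind the fork, at 34.7 against 11.9 CPM (1.54, 0.75 to 2.36), and Prim1, the primase subunit, at 45.6 against 18.3 CPM (1.31, 0.66 to 1.98). The Uhrf1 ratio turned to -0.30 when cells were thinned to equal depth and called again, and was 1.35 with negative cells matched on depth. The helicase subunits Mcm3 (0.36, -0.09 to 0.79) and Mcm5 (0.36, -0.20 to 0.90) had intervals that include 0. Pcna, the sliding clamp, had 173 and 305 UMIs, 171 against 151 CPM, a log2 ratio of 0.18 (-0.10 to 0.46), which does not reach 1.5-fold in either direction.

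Histone genes had a median between those of the mitotic and replication lists, and nucleotide synthesis genes one below both. In nucleotide synthesis, 7 of 21 measured genes were past 1.5-fold on the higher side and 1 on the lower, with a median log2 ratio of 0.32. Among them were Rrm2, a ribonucleotide reductase subunit (23.8 against 6.93 CPM, 1.78, 0.77 to 2.84), Tyms, thymidylate synthase (61.4 against 22.8 CPM, 1.43, 0.86 to 2.01), and Tk1, thymidine kinase (26.8 against 11.9 CPM, 1.17, 0.32 to 2.03). Of 18 measured replication-dependent histone genes (52 in the list), 13 were higher and 0 lower, with a median of 0.89. Most genes of that list had too few UMIs to be measured. Hist1h1b, a linker histone gene, had 166 against 108 UMIs, 165 against 53.5 CPM, a log2 ratio of 1.62 (1.26 to 1.98), and Hist1h2ap had one of 1.58 (1.09 to 2.07). Histone genes are close copies of one another, so how their reads were shared out is uncertain.

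Repair and chromosome structure genes were also higher in positive cells. In homologous repair and the Fanconi pathway, 21 of 33 measured genes passed 1.5-fold on the higher side and 0 on the lower (median 0.70). Rad51b, a recombination repair gene, had 199 against 54 UMIs (197 and 26.7 CPM, 2.88, 2.44 to 3.34), Brca1 had 53 against 21 (52.5 and 10.4 CPM, 2.34, 1.58 to 3.14), and Polq, the polymerase of end joining by short homology, had 39 against 13 (2.59, 1.65 to 3.62). Neil3, a DNA glycosylase gene, had 57 UMIs in positive cells and 3 in the larger set of negative cells, a log2 ratio of 5.25 (3.63 to 7.57). Of 24 measured genes for chromosome structure and the nuclear lamina, 13 were higher and 0 lower (median 0.71), among them the condensin genes Ncapg2 (1.84), Ncapd2 (1.85) and Ncapg (1.94). Diaph3, a formin that the list also held, was at 230 against 44.1 CPM (2.38, 2.02 to 2.75), Ezh2, the H3K27 methyltransferase gene, at 260 against 130 CPM (0.995, 0.74 to 1.25), and Hmgb2 at 626 against 427 CPM (0.55, 0.40 to 0.70). Lmnb1, the lamin B1 gene, had a log2 ratio of 0.16 (-0.05 to 0.36).

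**Figure D2:**
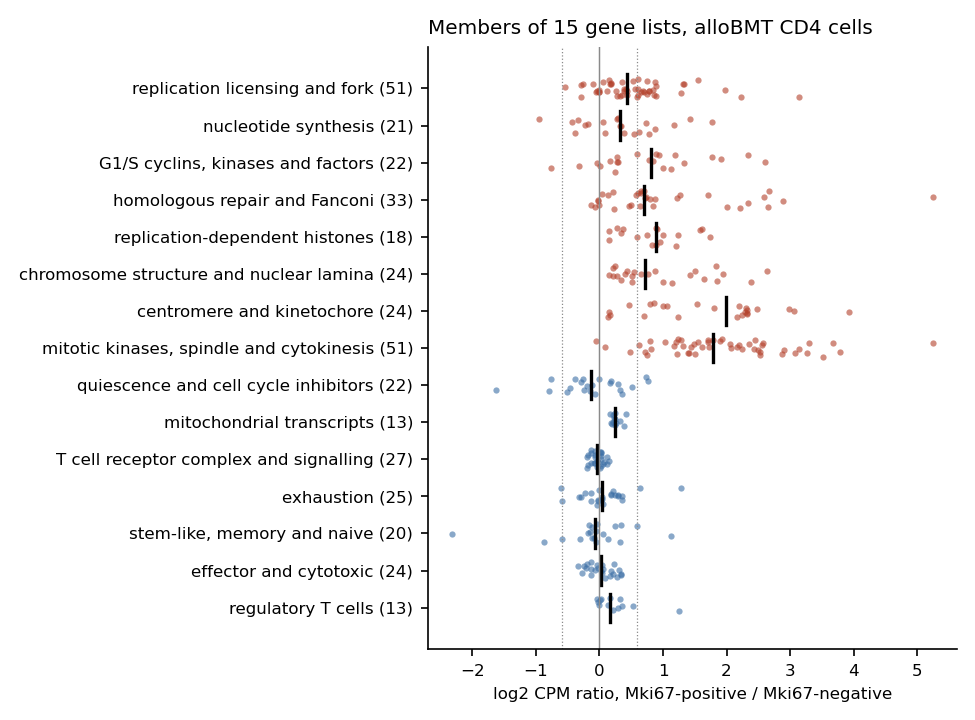
Log2 ratio of Mki67-positive to Mki67-negative CPM (horizontal axis) for the measured members of 15 gene lists in alloBMT CD4 cells, with each point a gene, the number of measured members in brackets and each list's median marked. Mitotic and centromere genes lie right of 0 with medians of 1.78 and 1.99, while T cell state lists centre near 0.

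G1 genes split by role. In the list of G1/S cyclins, kinases and factors, 13 of 22 measured genes passed 1.5-fold on the higher side and 1 on the lower. The median was 0.81, but the summed levels were 2389 against 2462 CPM (log2 ratio -0.04). The sum and the median differ in sign, and Ccnd3, Ccnd2 and Cdk6 together make up most of the sum. E2f7, a late repressor of the E2F family, was at 51.5 against 8.42 CPM (2.61, 1.80 to 3.50), Skp2, the F-box protein that marks p27 for destruction, at 35.7 against 10.4 CPM (1.78, 0.96 to 2.63), and E2f2 at 33.7 against 13.4 CPM (1.33, 0.56 to 2.12). Ccnd3, cyclin D3, was the member on the lower side, with 449 UMIs in positive and 1528 in negative cells, 445 against 757 CPM, a log2 ratio of -0.77 (-0.92 to -0.61). Its level was 562 CPM in cells with 1 Mki67 UMI, 504 CPM with 2 and 160 CPM with 3 or more. Ccnd2, cyclin D2, had a ratio of -0.32 (-0.54 to -0.11), and Cdk6, their kinase partner, was at 955 and 948 CPM (0.01, -0.10 to 0.12).

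The summed level of quiescence genes was slightly lower in positive cells, 3788 against 4071 CPM (log2 ratio -0.10, -0.16 to -0.05). Of its members 6 had an interval below 0 and 2 one above 0. Of 22 measured genes for quiescence and cell cycle inhibition, 3 were at least 1.5-fold lower and 2 higher (median -0.13), where 6.3% and 8.09% of all genes were. Klf3, a quiescence-linked repressor, was at 26.8 against 46.6 CPM (-0.80, -1.47 to -0.17). Short of 1.5-fold were Txnip, an inhibitor of glucose uptake, at 50.5 against 72.3 CPM (-0.52, -1.01 to -0.05) and Cdkn1b, which encodes the inhibitor p27, at 54.5 against 74.8 CPM (-0.46, -0.93 to 0.00). Cdkn2c, a CDK4 and CDK6 inhibitor gene, had a ratio of 0.74 whose interval runs from -0.35 to 1.81. Of 17 measured p53 targets, 3 were higher and 2 lower (median 0.13).

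Growth and energy genes differed little. Beside the counts that follow, 8.09% of all genes were 1.5-fold higher and 6.3% lower. Of 27 measured Myc targets and genes for ribosome making, 1 was higher and 1 lower (median 0.00), and of 42 nuclear genes for oxidative phosphorylation, 0 passed 1.5-fold in either direction (median -0.05). Mitochondrial transcripts were slightly higher in positive cells, with 0 of 13 past 1.5-fold, a median of 0.24 and summed levels of 45322 against 38786 CPM. In 12 of these 13 the interval lay above 0, for example mt-Nd5 (721 against 577 CPM, 0.32, 0.19 to 0.46). The mitochondrial median was 0.14 with negative cells matched on total UMIs. Within clusters 0, 1 and 3 it was 0.33, 0.03 and 0.15, so the difference was nearly absent in cluster 1. In glycolysis 2 of 18 were higher and 1 lower (median -0.09), with Tpi1 at 0.89 (0.32 to 1.46), Aldoa at -0.71 (-1.27 to -0.19) and Pgk1 at -0.58 (-1.16 to -0.04).

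T cell identity and exhaustion genes were close to equal over all positive and all negative cells, most of the former holding 1 Mki67 UMI. Of 25 measured exhaustion genes, 2 passed 1.5-fold upward and 1 downward, against 8.09% and 6.3% of all genes. The list's median was 0.04, and the summed levels were 11943 and 11986 CPM. Tox, the transcription factor tied to exhaustion, had 5858 UMIs in positive and 11855 in negative cells, 5805 against 5872 CPM, a log2 ratio of -0.02 (-0.06 to 0.03). Tox thus made up a large part of both sums. The inhibitory receptor genes Pdcd1 (243 and 214 CPM, 0.19, -0.05 to 0.42), Lag3 (260 and 263 CPM, -0.02, -0.24 to 0.20) and Tigit (130 and 112 CPM, 0.21, -0.11 to 0.53) had intervals that include 0 and leave out a 1.5-fold difference. Tox2 was slightly higher (153 and 119 CPM, 0.35, 0.05 to 0.65), while Nr4a3 was lower (49.6 and 74.3 CPM, -0.58, -1.08 to -0.11). The authors' deposited score named Tex1 averaged 0.0135 in positive and 0.0133 in negative cells, and the Stem_Like1 score -0.0442 and -0.0485, differences of 0.00478 and 0.0444 SD of the negative cells.

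Stem-like, memory and naive genes also centred near 0: 2 of 20 were higher and 2 lower (8.09% and 6.3% of all genes were), with a median of -0.07. Tcf7, which encodes the stem-like factor TCF1, was lower on the positive side, with 18 UMIs against 66, 17.8 against 32.7 CPM, a log2 ratio of -0.87 (-1.71 to -0.10). Foxo1 was slightly higher (216 and 173 CPM, 0.32, 0.07 to 0.57), and Il7r, the IL-7 receptor gene, was at 64.4 and 58.9 CPM (0.13, -0.33 to 0.58). The Il7r level was 102 CPM in cells with 1 Mki67 UMI, 22.2 CPM in those with 2 and 14.9 CPM in those with 3 or more. The last 2 levels rest on few UMIs, since 3 counts are 16.6 and 11.2 CPM in these classes.

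Among 24 measured effector and cytotoxic genes, 0 passed 1.5-fold in either direction, against 8.09% upward and 6.3% downward over all genes. The median of these genes was 0.03. Their summed level was lower in positive cells, 9912 against 11014 CPM (log2 ratio -0.15, opposite in sign to the median). Ccl5, a chemokine gene and the most abundant member named, had 4643 UMIs against 11233, 4601 against 5564 CPM, a log2 ratio of -0.27 (-0.32 to -0.22). Ifng was at 202 and 222 CPM (-0.13, -0.38 to 0.11) and Gzmb, granzyme B, at 245 and 215 CPM (0.19, -0.04 to 0.42). Of 13 measured regulatory T cell genes, 1 was higher and 0 lower (median 0.16). Foxp3 had 16 and 26 UMIs (0.30, -0.70 to 1.25) and Il2ra 27 and 43 (0.33, -0.42 to 1.06), and neither had a UMI in the 45 cells with 3 or more Mki67 UMIs, where 0 counts allow a level of up to 11.2 CPM. Ikzf2, the Helios gene, was at 746 against 584 CPM (0.35, 0.22 to 0.49), with 903 CPM in cells with 1 Mki67 UMI and 507 CPM in cells with 3 or more. Itgae, the CD103 integrin gene, was the member past 1.5-fold, at 30.7 against 12.9 CPM (1.25, 0.45 to 2.06), from UMIs in 2.76% and 2.23% of cells.

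Medians of signalling lists over all positive and all negative cells stayed near 0 as well. Among all 9280 genes 8.09% were 1.5-fold higher and 6.3% lower. Trafficking and CD8 and innate-like genes exceeded both shares, and interferon and BCL2 family genes the lower one, each from few genes. Among genes of the T cell receptor complex and its signalling, 0 of 27 passed 1.5-fold (median -0.04), with Fyn, a proximal kinase gene, at 2383 against 2734 CPM (-0.20, -0.27 to -0.13), Lck at 496 against 567 CPM (-0.19, -0.35 to -0.04) and Cd4 at 591 against 679 CPM (-0.20, -0.34 to -0.06). Of 24 activation genes 0 were higher and 1 lower (median -0.07), and of 30 cytokine receptor and STAT genes 0 were higher and 1 lower (-0.04). Of 30 interferon response genes 2 were higher and 4 lower (-0.01), and of 13 MHC class I genes 0 passed (0.00). Among 17 trafficking genes 3 were higher and 2 lower (0.00): Cxcr4, the CXCL12 receptor gene, was higher (27.7 against 12.9 CPM, 1.11, 0.28 to 1.94), while Ccr2 was lower (96.1 against 149 CPM, -0.63, -0.98 to -0.30), as was the collagen-binding integrin gene Itga1 (7 UMIs against 43, -1.62, -3.02 to -0.45). In the BCL2 family and death list 1 of 16 was higher and 3 were lower (-0.12), with Bcl2l1, the BCL-XL gene, at 38.7 against 68.3 CPM (-0.82, -1.37 to -0.30) and Bcl2 at 512 against 578 CPM (-0.17, -0.33 to -0.02). Of 6 measured CD8 and innate-like markers 1 was higher and 1 lower (0.30).

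The division signal was concentrated in the cells with several Mki67 UMIs. The mitotic and centromere lists together (88 genes) summed to 1207 CPM (1160 to 1256) in negative cells, 1435 CPM (1338 to 1538) in cells with 1 Mki67 UMI, 2755 CPM (2518 to 3008) with 2 and 9795 CPM (9424 to 10177) with 3 or more. The 45 cells of the last class held 66.9% of the mitosis and kinetochore UMIs of the positive cells, with 26.6% of their total UMIs. Outside cluster 2 the same levels were 1211, 1359, 1842 and 6715 CPM, so the order of the classes was the same there. At least 5 such UMIs were found in 50.0% of positive and 29.8% of negative cells, and in 33.7% of those with 1 Mki67 UMI, with medians of 4.5 and 3 UMIs on the positive and negative sides. At least 20 were found in 42 of 254 positive cells (16.5%) and in 1 of 672 negative cells (0.149%). By class these were 3 of 166 cells with 1 Mki67 UMI (1.81%), 7 of 43 with 2 (16.3%) and 32 of 45 with 3 or more (71.1%). Of the 43 cells past this mark 24 lay in cluster 2, 9 in cluster 0, 7 in cluster 1 and 3 in cluster 3. These classes also differ in depth (medians of 2667, 2837.5, 3834 and 5244 UMIs per cell), so counts per cell do not rest on equal depth.

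**Figure D3:**
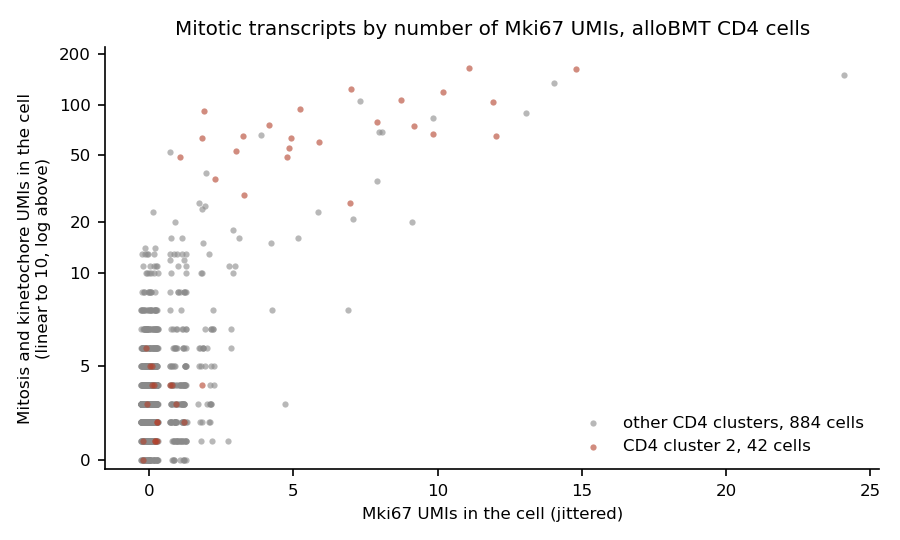
UMIs of the 88 mitosis and kinetochore genes in each alloBMT CD4 cell (vertical axis, linear to 10 and logarithmic above) against the cell's Mki67 UMIs (horizontal axis, points jittered), with cluster 2 in its own colour. The highest negative cell has 23 such UMIs and the highest positive cell 164, and most cells with 1 Mki67 UMI lie in the range of the negative cells.

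The comparison of classes shows which members separate a cell with 1 Mki67 UMI from a negative cell. With exactly 1 UMI against none, 1 gene of 4626 with at least 100 UMIs was 2-fold higher (0.0216%), Diaph3 with 51 against 89 UMIs (1.05, 0.52 to 1.56), and 12 were 2-fold lower (0.259%). In the mitotic list 11 of 39 measured members were 1.5-fold higher and 4 lower, against 7.24% and 9.73% of all genes, with a median of 0.31. In the centromere list the median was 0.30. With at least 3 UMIs against none, 50 of 50 measured members of the mitotic list were 1.5-fold higher (14.2% of all genes were) and its median was 3.10. Of 49 measured replication genes 32 were higher and 2 lower, with a median of 0.94. Pcna was at 302 CPM in the cells with 3 or more Mki67 UMIs against 151 CPM in negative cells, a log2 ratio of 0.998, and Top2a at 1035 CPM. The summed exhaustion list showed no such gradient, at 11986, 12032, 12323 and 11501 CPM over the classes of 0, 1, 2 and at least 3 Mki67 UMIs. The effector list was at 11014, 10727, 9340 and 8596 CPM, the stem-like list at 3375, 3304, 3448 and 2860 CPM, and the regulatory list at 1684, 2240, 1741 and 1430 CPM. With at least 3 UMIs against none, list medians were -0.18 for exhaustion, -0.20 for T cell receptor and -0.21 for regulatory genes. They were -0.26 for cytokine receptor and -0.26 for trafficking genes, against -0.07 over all genes. Effector (-0.05), MHC class I (-0.03) and BCL2 family (0.02) medians were not below that level.

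**Figure D4:**
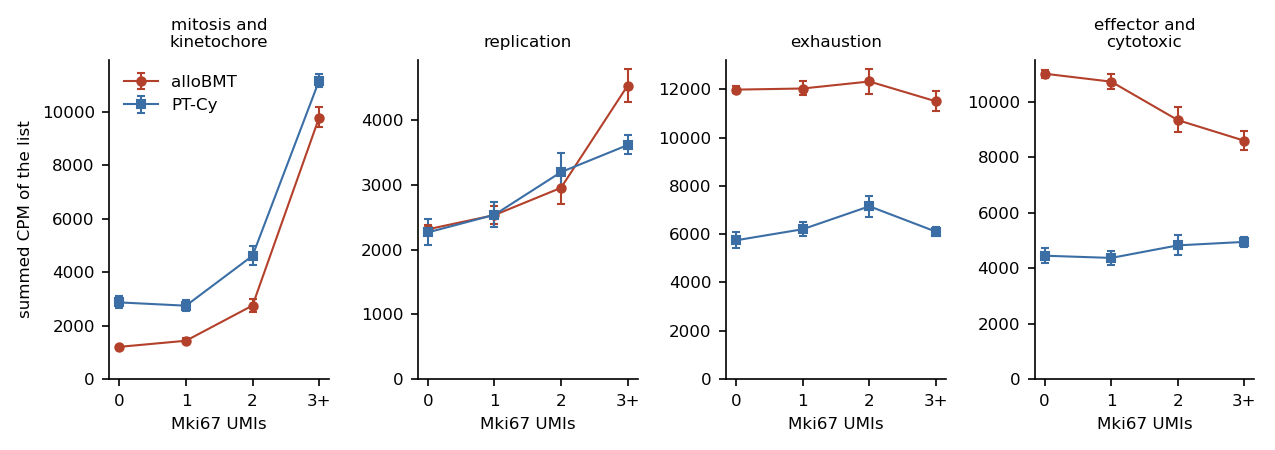
Summed CPM of gene lists (vertical axes, each starting at 0) in CD4 cells with 0, 1, 2 and 3 or more Mki67 UMIs (horizontal axis), with lines for alloBMT and PT-Cy and bars for the 95% counting interval. In alloBMT the mitosis and kinetochore sum goes from 1207 CPM at 0 UMIs to 9795 CPM at 3 or more, while the exhaustion sum stays between 11501 and 12323 CPM.

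Depth per cell and the small cluster 2 were then taken out of the comparison. With each positive cell paired to the negative cell closest in total UMIs, the mitotic, centromere and replication medians were 2.03, 2.04 and 0.38. With every cell thinned to 1971 UMIs and called again, they were 1.63, 0.99 and 0.16, and 8 genes were 2-fold higher (0.235%). Without cluster 2, they were 1.13, 0.92 and 0.31. There 35 of 47, 12 of 21 and 10 of 49 measured members were 1.5-fold higher, against 7.02% of all genes. In that setting 5 genes were 2-fold higher (0.102%): Rad51b, Diaph3, Cenpe, Kif11 and Hist1h1b. Within cluster 0 the median of 28 measured mitotic genes was 1.26, and within cluster 1 that of 23 was 0.91. Centromere genes were few there, with medians of 0.17 (10 genes) and 1.47 (9 genes), while the list's summed levels had log2 ratios of 0.88 and 0.85. The replication medians were 0.43 and 0.17. In cluster 3 only 3 mitotic genes were measured, and the summed mitotic level had a log2 ratio of 0.59 (0.30 to 0.88). After the deepest 5% of cells were dropped, 18 genes were 2-fold higher (0.383%) and the 3 medians were 1.54, 1.66 and 0.41.

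The PT-Cy library, which the rule did not use here, gave the same order of these 3 list medians, with most of its cells positive. Split the same way into 221 positive and 63 negative cells, it had 79 genes 2-fold higher (2.73%) and 5 lower (0.173%), with medians of 1.41 for the mitotic, 1.53 for the centromere and 0.58 for the replication list, where 17.2% of all genes were 1.5-fold higher. Its negative cells held more mitotic RNA than those of alloBMT, 2871 against 1207 CPM over the 88 genes, and its classes with 1, 2 and at least 3 Mki67 UMIs held 2748, 4618 and 11178 CPM. Ccnd3 was lower in its positive cells too (388 against 510 CPM, -0.40, -0.71 to -0.07), as was Tcf7 (84.4 against 153 CPM, -0.85, -1.45 to -0.22). Hist1h1b was not higher there (201 against 229 CPM, -0.19, -0.65 to 0.30). PT-Cy positive cells had a median of 4197 UMIs against 2976 in negative cells, so depth moves with the class there as well. These differences between the libraries were not tested, with 1 library each.

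Open chromatin of the same barcodes differed 2-fold at few peaks. Summed ATAC counts were 2346552 in positive and 4627810 in negative cells. Peaks holding 100 counts or more numbered 17501. A 2-fold greater opening in positive cells was seen at 1 of them (0.00571%) and a 2-fold smaller opening at 6 (0.0343%), and the interval lay above 0 in 2.55% and below 0 in 3.27% of peaks. The more open peak lies in Rnf165 (log2 ratio 1.03), and the next highest lower bounds were those of peaks in Asap1 (chr15:64234431-64236109, 0.88), Ppp2r5d (0.96), Mecr (0.86) and Ppfia4 (0.95). The lowest upper bound was that of a peak in Mthfd2, a mitochondrial folate enzyme gene (chr6:83311741-83313010), with 37 against 168 counts, 15.8 against 36.3 ATAC CPM (counts scaled by each side's ATAC total), a log2 ratio of -1.20 (-1.76 to -0.68). Peaks in St6galnac3 (-1.13) and Nsd3 (-0.99) and peaks 52.2 kb from Mphosph6 (-1.17) and 49.3 kb from Eif3h (-0.996) followed. Peak positions are as deposited. The submitters' processing notes name GRCh38, a human build. With RefSeq starts of GRCm38.p6, 64.8% of 17491 promoter windows lay in a deposited peak, against 7.65% to 9.06% when the windows were shifted by 2000 to 200000 bases.

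Loci of division genes differed little between all positive and all negative cells. A locus here is the set of peaks that overlap a gene or lie within 2 kb of it. Over 15203 loci holding 20 counts or more, 2.56% passed 1.5-fold toward open in positive cells and 2.04% toward closed. Of the 61 loci in the mitotic list 0 passed 1.5-fold in either direction (median log2 ratio 0.05, range -0.44 to 0.55), and medians were 0.09 for 27 centromere loci, 0.01 for 51 replication loci and -0.01 for 25 exhaustion loci. The mitotic loci spread wider with fewer counts. With negative cells matched on ATAC counts, 1 locus was more and 1 less open past 1.5-fold (2.83% and 2.2% of all loci). In the cells with at least 3 Mki67 UMIs these were 4 and 3 (6.12% and 8.19% of all), and in PT-Cy 9 and 3 (11.5% and 7.44%), with medians of 0.08 and 0.04. The 2-fold higher genes had a locus in 30 cases, of which 15 lay above 0, with a median of -0.01, and 50.5% of all loci lay above 0. Their range ran from -0.40 at Nusap1 to 0.34 at Ncapg2. Across 8597 genes measured in both assays, Pearson's r between the RNA and ATAC log2 ratios was 0.0159 and Spearman's rho 0.0151, over genes read in the same cells.

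**Figure D5:**
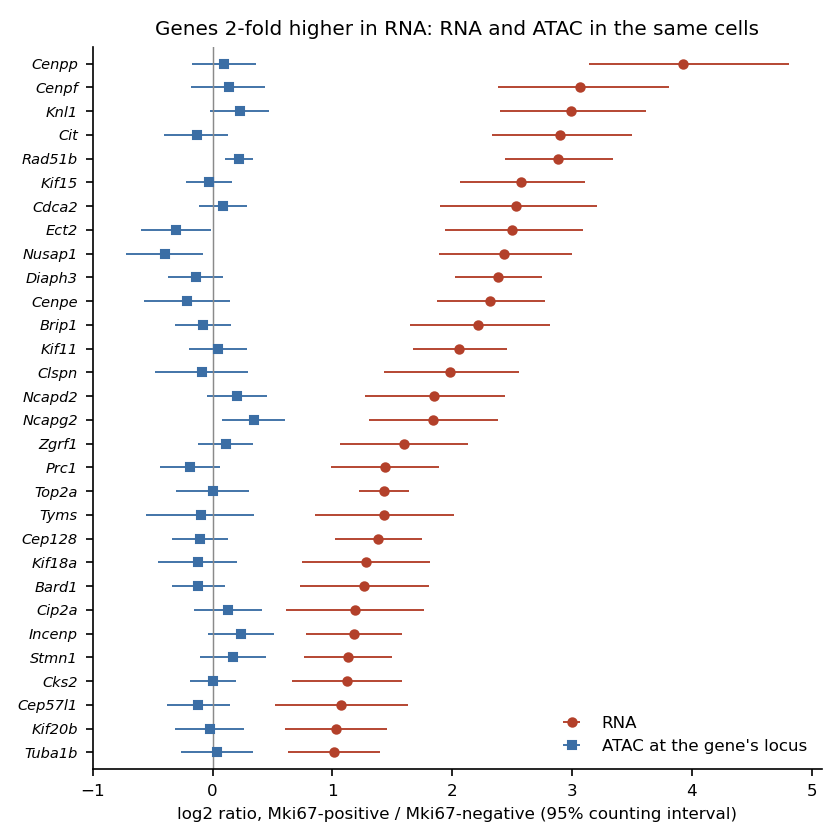
Log2 ratio of Mki67-positive to Mki67-negative cells (horizontal axis, with 95% counting intervals) for genes at least 2-fold higher in RNA, with the RNA ratio and the ATAC ratio of the locus as separate markers. RNA ratios lie above 1 by the choice of genes, while the ATAC ratios lie between -0.40 and 0.34.

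The promoters printed above sat in open peaks on both sides. The Mki67 window lies in the peak at chr7:135715160-135716873, which had 137 counts in positive and 245 in negative cells, 58.4 against 52.9 ATAC CPM, a log2 ratio of 0.14 (-0.17 to 0.45). Negative cells thus also held an open Mki67 promoter peak, and a difference in its level was not detectable at this depth. The peak of Top2a (chr11:99023154-99024557) had 117 and 225 counts (0.04), that of Cenpf (chr1:189687431-189688729) 125 and 206 (0.26), that of Cdk1 (chr10:69351824-69353330) 101 and 214 (-0.10) and that of Knl1 (chr2:119046318-119047637) 95 and 163 (0.20), all with intervals that include 0. The Ccnd3 peak (chr17:47504302-47505337) had 66 and 132 counts (-0.02, -0.47 to 0.42) beside a Ccnd3 RNA ratio of -0.77. At whole loci, intervals above 0 included those of Rad51b (0.22, 0.10 to 0.34), Ncapg2 (0.34, 0.08 to 0.61), Ccnb1 (0.50, 0.15 to 0.84) and Ikzf2 (0.20, 0.03 to 0.36). That of Rad51b ran from -0.01 to 0.26 with negative cells matched on ATAC counts. Intervals below 0 included those of Nusap1 (-0.40, -0.73 to -0.08), Ect2 (-0.30, -0.60 to -0.01) and Skp2 (-0.43, -0.78 to -0.09). These 3 genes had more RNA in positive cells. Among the 61 loci of the mitotic list, 4 had an interval above 0 and 4 had one below 0, so the loci named are examples.

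The letters TTTGAA marked in the printed promoters were common among the late genes. TTTGAA, on either strand, was in 35 of 52 promoters of the mitotic list (67.3%) and 12 of 23 of the centromere list (52.2%), against 7 of 42 of the replication list (16.7%), 10.8% of the 4093 genes with at least 100 UMIs and a promoter in the table, and 18.1% of all 27025 promoters. Among the genes 2-fold higher in positive cells 12 of 27 held it (44.4%). CCAAT was in 36 of 52 mitotic promoters (69.2%), 24 of 42 replication promoters (57.1%), 14 of 26 repair promoters (53.8%), 15 of the 27 and 37.9% of all promoters, so it was common in the early lists too. E2F elements were searched on either strand, with overlaps allowed, in 3 forms. The first form was TTCCCGC. The next form, a variant core, was TTGGCGC. The last form searched for was TTCGCGC. At least 1 of these was in 27 of 42 replication promoters (64.3%), 15 of 26 repair promoters (57.7%) and 11 of 52 mitotic promoters (21.2%). Such an element was in 16.1% of the 4093 genes and 8.21% of all promoters. Of the 27 genes 2-fold higher in positive cells, 10 held one (37.0%). The 4093 genes and the 27 genes were chosen by RNA values and the lists with earlier results known, and no test was made of these shares.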

How the data were processed

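Cells of the alloBMT and PT-Cy libraries were taken by the labels, and CD4 membership, clusters and per-cell measures by the deposited tables. Cell Ranger ARC 1.0.1 and MACS2 are named in the submitters' processing notes, along with the build GRCh38. The deposited RNA and ATAC tables hold raw counts per gene or peak and cell, per the file headers and the values. The per-cell table deposited by the authors gives each cell's mitochondrial percent, its fraction of fragments in peaks (here as a percent), its TSS enrichment ratio and module scores of unstated gene sets. Each score deposited by the authors was used as it stands. Of its 58 columns, 41 were not used. The totals recomputed for all 1210 CD4 cells equalled those of that table, and 0 CD4 barcodes occurred in both libraries (2 over all cells).

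For each side the counts of its cells were added up, divided by the side's total (CPM) and compared as log2 ratios of positive to negative cells, with a 95% interval from the exact conditional binomial distribution (Clopper-Pearson), which covers counting error only. No test was run, since cells of 1 library are not replicates. Genes and peaks needed at least 100 counts and 2-fold, list members at least 20 UMIs and 1.5-fold. Against a count of 0 a floor of 3 counts was used. The 30 lists (757 genes) and the members were chosen with earlier results of these data known. Named genes were those past 2-fold with the 12 highest lower and 12 lowest upper bounds (without Mki67, predicted, sex-linked, haemoglobin, mitochondrial, ribosomal and receptor segment genes), per list the 4 largest absolute ratios among genes of 50 UMIs or more, a set of cycle and T cell state genes, and 5 peaks per direction. Genes counted by symbol may share reads with overlapping genes.

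Alternatives were other scaling (edgeR 4.0.16 TMM, DESeq2 1.42.0 size factors, R 4.3.3), depth matching, thinning, other Mki67 thresholds, cells left out, per-cell weighting, count minimums, windows and the PT-Cy library. The comparisons of at least 3 and of exactly 1 Mki67 UMI were added after seeing the data. The authors' treatment of doublets was not given in the sources used here and no caller was run, so a version that drops the deepest 5% of cells was computed. Ratios were checked on simulated data. Other software was Python 3.11.15, matplotlib 3.10.9, pandas 2.3.3, scipy 1.17.1 and numpy 2.4.6, and promoters came from the RefSeq table for GRCm38.p6.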

Additional observations from a re-analysis of the deposited data

Results flagged for a closer look

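For 3 named genes the interval of the ratio lay on opposite sides of 0 in the alloBMT and PT-Cy libraries, and the difference between the libraries was not tested. Ccr2, a chemokine receptor gene, had a log2 ratio of positive to negative cells of -0.63 (-0.98 to -0.30) in alloBMT and 0.54 (0.12 to 0.996) in PT-Cy. Fyn had one of -0.20 (-0.27 to -0.13) in alloBMT and 0.24 (0.03 to 0.46) in PT-Cy. Gcg, the proglucagon gene, is not one T cells are known to use. It had 20 against 110 UMIs in alloBMT, a log2 ratio of -1.46 (-2.23 to -0.76), from UMIs in 3.94% of positive and 3.42% of negative cells. With negative cells matched on total UMIs the Gcg ratio was -0.80 (-1.68 to 0.05) and the Ccr2 ratio -0.33 (-0.74 to 0.07), so both intervals then include 0, while that of Fyn was -0.19 (-0.27 to -0.11). In PT-Cy the Gcg level was 22.8 CPM (24 UMIs) in positive cells and 0 in negative cells. With a floor of 3 counts in place of 0 the log2 ratio was 0.67. The lower bound of its interval was 0.26, with no upper bound.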

How the results depend on the processing

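Scaling by TMM or DESeq2 size factors moved the log2 ratios by -0.03 and -0.0058. Genes 2-fold higher (33, 0.645% of those tested) became 8 after thinning (0.235%), 68 with at least 2 Mki67 UMIs (1.5%) and 96 with at least 3 (2.24%). They became 1 with exactly 1 UMI (0.0216%), 5 without cluster 2 (0.102%), 18 without the 5% deepest cells (0.383%) and 79 in PT-Cy (2.73%). A minimum of 20 UMIs gave 291 of 9280 genes, and no minimum gave 1679 genes. Genes 2-fold lower (3, 0.0587%) became 12 after thinning (0.352%), 40 with at least 2 Mki67 UMIs (0.882%), 137 with at least 3 (3.19%) and 12 with exactly 1 (0.259%). They became 6 without the deepest cells (0.128%), 5 in PT-Cy (0.173%) and 6 with per-cell means (0.117%), with 145 at 20 UMIs and 517 with no minimum. With at least 3 Mki67 UMIs, more genes were thus lower than higher, but the sides were unequal, at 268502 against 2018894 UMIs. The low counts of the smaller side carry more counting error. Whether this shaped the numbers of lower and higher genes, or those of less and more open peaks below, was not tested. More open peaks (1, 0.00571%) became 0 when each cell counted once per peak, 12 with at least 2 Mki67 UMIs (0.0793%) and 40 with at least 3 (0.281%). They became 29 in PT-Cy (1.14% of only 2541 peaks) and 54 at a minimum of 50 counts (0.191%). Less open peaks (6, 0.0343%) became 1 (0.00625%), 72 (0.476%) and 281 (1.97%) under the first 3 and 148 at 50 counts (0.524%).

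List medians crossed 1.5-fold in these cases. Thinning gave 0.17 for G1/S, 0.54 for histone and 0.45 for repair genes. Without cluster 2 chromosome structure was at 0.48, histones at 0.47 and repair at 0.39, and without the deepest cells histones were at 0.58 and repair at 0.55. PT-Cy gave 0.53 for G1/S and 0.37 for histones. With exactly 1 Mki67 UMI the medians were 0.31 (mitotic), 0.30 (centromere), 0.0894 (G1/S), 0.22 (chromosome structure), 0.22 (repair) and -0.0322 (histones, reversed). With at least 2 UMIs replication was at 0.73, and with at least 3 it was at 0.94 and nucleotide synthesis at 0.62. Per-cell means gave 0.58 for chromosome structure and 0.42 for repair, and without cells with a Cd8b1 UMI repair was at 0.58 and the CD8 and innate-like list at -0.81. The other 289 list values stayed on their side.

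Named genes whose interval left out 0 turned sign in PT-Cy (Aldoa 0.0666, Bcl2l1 0.59, Ccne2 -0.0573, Ccr2 0.54, Cd3d 0.0409, Fyn 0.24, Gcg 0.67, Hist1h1b -0.19, Itgae -0.65, Nr4a3 0.0322, Psmb8 0.15, mt-Atp8 -0.19), after thinning (Cd3d 0.0377, Cd40lg 0.0805, Uhrf1 -0.30) and with at least 2 Mki67 UMIs (Ikzf2 -0.0859). Loci whose interval left out 0 did so in PT-Cy (Ccnb1 -0.28, E2f7 -0.0298, Eif4e -0.29, Ikzf2 -0.11, Il12rb2 0.0512, Skp2 0.0644). The causes were not tested. Fewer cells and UMIs widen each alternative's counting error, and genes with few UMIs, such as Ccnb1, cannot be placed at this depth. No paired analysis was possible because each group and assay has 1 library and no test was run.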

Other observations

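Among the genes at least 2-fold lower in positive cells with at least 100 UMIs, Ecsit, a mitochondrial assembly and signalling adaptor gene, had 25 against 102 UMIs and a log2 ratio of -1.03 (-1.72 to -0.39). At the Cdk1 promoter peak, the cells with at least 3 Mki67 UMIs had 11 ATAC counts against 214 in negative cells, 20.7 against 46.2 ATAC CPM, a log2 ratio of -1.16 (-2.18 to -0.29), while Cdk1 RNA was higher in the same cells, with a log2 ratio of 3.23. That peak was singled out after its values were seen, and its ratio rests on 11 counts. In the same class 1.97% of 14228 peaks were 2-fold less open and 0.281% more open. The peaks of the other printed promoters lay between -0.04 and 0.36 there, all with intervals that include 0. Between all positive and all negative PT-Cy cells the Cdk1 peak had a log2 ratio of 0.66 (-0.48 to 2.05). Of the 254 positive cells, 9 held 0 UMIs of the other mitosis and kinetochore genes.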
